A study of Mus musculus with 24 samples.

Results

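The Oas genes described here are 5 of the mouse OAS family, Oas1a, Oas1b, Oas2, Oasl1 and Oasl2, among 18193 mouse genes named by a single symbol in the platform annotation. Their probe sets were found by that symbol, but the 5 genes were chosen with earlier results of these data known, and a further 5 OAS genes with probe sets of their own, which stayed at background, are given separately. Each of the 5 was represented by exactly 1 probe set (1424775_at, 1425119_at, 1425065_at, 1424339_at and 1453196_a_at in the order above). No probe set that the annotation gave to several genes held a member. The probe sequences were not used here, so whether a probe set also took up RNA of a close copy of its gene, such as Oas1g beside Oas1a, was not tested.

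The 2'-5' oligoadenylate synthetases (OAS) are interferon-induced enzymes that are switched on by double-stranded RNA and join ATP into short 2'-5' linked oligoadenylates. These activate the nuclease RNase L, which cuts viral and cellular RNA and so limits viral growth. Oas1a and Oas2 are OAS enzymes, Oas1b is the flavivirus resistance gene that is truncated in many laboratory strains, Oasl1 is an OAS-like protein without synthetase activity that restrains translation of Irf7, and Oasl2 is an OAS-like protein that has kept synthetase activity.

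Total cellular RNA was measured on 24 arrays from NIH-3T3 cells, an established line of mouse embryonic fibroblasts, taken 1 h or 3 h after mock treatment, IFN-alpha or IFN-gamma. The interferons were each given at 100 U/ml. At 1 h, 4 arrays per treatment held cells exposed to 200 uM 4-thiouridine (4sU), a uridine analogue that cells take up into RNA, for the whole 60 min, and 3 further arrays held mock cells without 4sU. At 3 h, 3 arrays per treatment held cells exposed to 500 uM 4sU from 150 to 180 min. All groups were therefore of 1 cell line, and every interferon-treated group carried 4sU. Because the arrays measured bulk RNA, fewer responding cells and less RNA per cell cannot be told apart.

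Values were log2 signals, with array medians of 2.95 to 3.11, and between 16933 and 17688 probe sets per array lay above log2 4, which was taken here as the background level. The median standard deviation (SD) within a group was 0.35 to 0.403 at 1 h and 0.118 to 0.127 at 3 h. On 5 arrays of the 1 h groups (replicate 2 of every group and replicate 3 of mock without 4sU) the 3' probe set for actin exceeded the 5' one by 2.22 to 3.43, against 0.785 to 1.37 on the other 19. The 10 fibroblast markers were all above log2 4 on average (median 12.4), whereas 1 of 9 measured leukocyte markers (Cd14, 5.35), 0 of 5 epithelial and 0 of 4 endothelial markers were. The labels do not say whether replicates were separate cultures, so p-values reflect only how these arrays varied, and that variation may be technical.

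All 5 genes lie on chromosome 5 in the mouse assembly GRCm38.p6, in 2 clusters. Oasl2 (chr5:114896926-114912245) and Oasl1 (chr5:114923143-114937911) are neighbours, and Oas2 (chr5:120730333-120749886), Oas1b (chr5:120812635-120824163) and Oas1a (chr5:120896256-120907544) lie in the other cluster. RefSeq annotates 4 of them as protein coding and Oas1b as a transcribed pseudogene. Upstream sequence was matched for 3 of the 5 members, Oas1a, Oasl1 and Oasl2. No upstream sequence was matched for Oas1b and Oas2. For each of the 3, the 250 bases before a start site from RefSeq (build GRCm38.p6) are printed here. They were searched on both strands for the core of the interferon-stimulated response element (ISRE), taken as 2 copies of GAAA 2 bases apart or the reverse complement, and for the interferon-gamma activated site (GAS), taken as TTC and GAA 3 bases apart. Capitals mark the matches, and each sequence runs 5' to 3' on the strand of its gene. The Oas1a window is chr5:120907526-120907775 on the minus strand, the Oasl1 window chr5:114922990-114923239 on the plus strand, and the Oasl2 window chr5:114896684-114896933 on the plus strand. These start sites lie inside the outermost ends of the gene coordinates above, so that the last 19 bases of the Oas1a window, 97 of the Oasl1 window and 8 of the Oasl2 window fall within the annotated genes.
Oas1a: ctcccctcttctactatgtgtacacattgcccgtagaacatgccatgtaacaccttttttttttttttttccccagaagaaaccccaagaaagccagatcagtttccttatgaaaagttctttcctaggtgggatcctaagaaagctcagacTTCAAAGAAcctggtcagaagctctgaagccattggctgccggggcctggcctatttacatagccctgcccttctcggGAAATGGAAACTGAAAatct
Oasl1: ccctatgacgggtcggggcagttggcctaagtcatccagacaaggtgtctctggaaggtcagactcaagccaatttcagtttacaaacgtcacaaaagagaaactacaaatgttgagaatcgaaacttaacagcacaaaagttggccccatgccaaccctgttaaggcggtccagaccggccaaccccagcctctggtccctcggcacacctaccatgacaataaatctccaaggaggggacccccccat
Oasl2: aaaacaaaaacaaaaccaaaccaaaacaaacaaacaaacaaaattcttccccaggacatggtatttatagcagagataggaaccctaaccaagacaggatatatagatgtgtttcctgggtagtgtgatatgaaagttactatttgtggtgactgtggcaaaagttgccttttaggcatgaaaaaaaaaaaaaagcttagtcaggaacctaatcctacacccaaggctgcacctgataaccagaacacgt

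The Oas1a window held 2 ISRE cores that overlap, at 20 to 11 and 14 to 5 bases before that start site, and 1 GAS at 98 to 90 bases before it. Of the 16 bases that the ISRE cores cover, 15 fall within the gene coordinates given above. Neither motif was found in the windows of Oasl1 and Oasl2. Among 32851 windows of the same length from 27025 genes, 2.98% held an ISRE core and 7.02% a GAS. Of 5 further OAS genes with upstream sequence, Oas1c, Oas1g and Oas3 held ISRE cores and Oas1f and Oas1h did not. The stretches around those matches follow for comparison with Oas1a, all on the minus strand of chromosome 5 (Oas1c chr5:120812604-120812643, Oas1g chr5:120887614-120887646, Oas3 chr5:120777710-120777749).
Oas1c: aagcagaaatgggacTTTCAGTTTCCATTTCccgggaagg
Oas1g: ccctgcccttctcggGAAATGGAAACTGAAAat
Oas3: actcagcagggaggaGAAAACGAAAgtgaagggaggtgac
The 16 bases in capitals of Oas1g are the same run of letters as the ISRE stretch of Oas1a. Those of Oas1c are the reverse complement of the same 16 bases. The printed Oas1c stretch overlaps the end of the Oas1b coordinates at chr5:120812635, with its capitals just outside them. Whether this match lies upstream of Oas1b was not read here. A match is a description of letters and not of a bound site. Whether a match goes with a response to interferon was not tested.

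At 3 h after IFN-alpha the signals of all 5 genes rose, and at 3 h after IFN-gamma those of Oas1a, Oas2 and Oasl2 rose whereas Oas1b and Oasl1 did not pass the test. At 1 h only Oasl2 rose, and only after IFN-alpha. The rises of Oas2 with IFN-gamma and of Oasl2 at 1 h did not pass with values below log2 4 set to 4. Differences are those between the mean log2 signals of the groups, with the standard error (SE), tested with limma and Benjamini-Hochberg adjustment over 19305 probe sets, and called at an adjusted p under 0.05. A probe set entered the test when it lay above log2 4 on at least 3 arrays. All 5 members passed, but Oas1b and Oasl1 did so only through the 3 arrays of IFN-alpha at 3 h, and Oas2 was above log2 4 on only 1 other array, so that their entry depended on that group. Where the lower group lay below log2 4, the fold was computed against log2 4 and is written "at least".

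**Figure D1:**
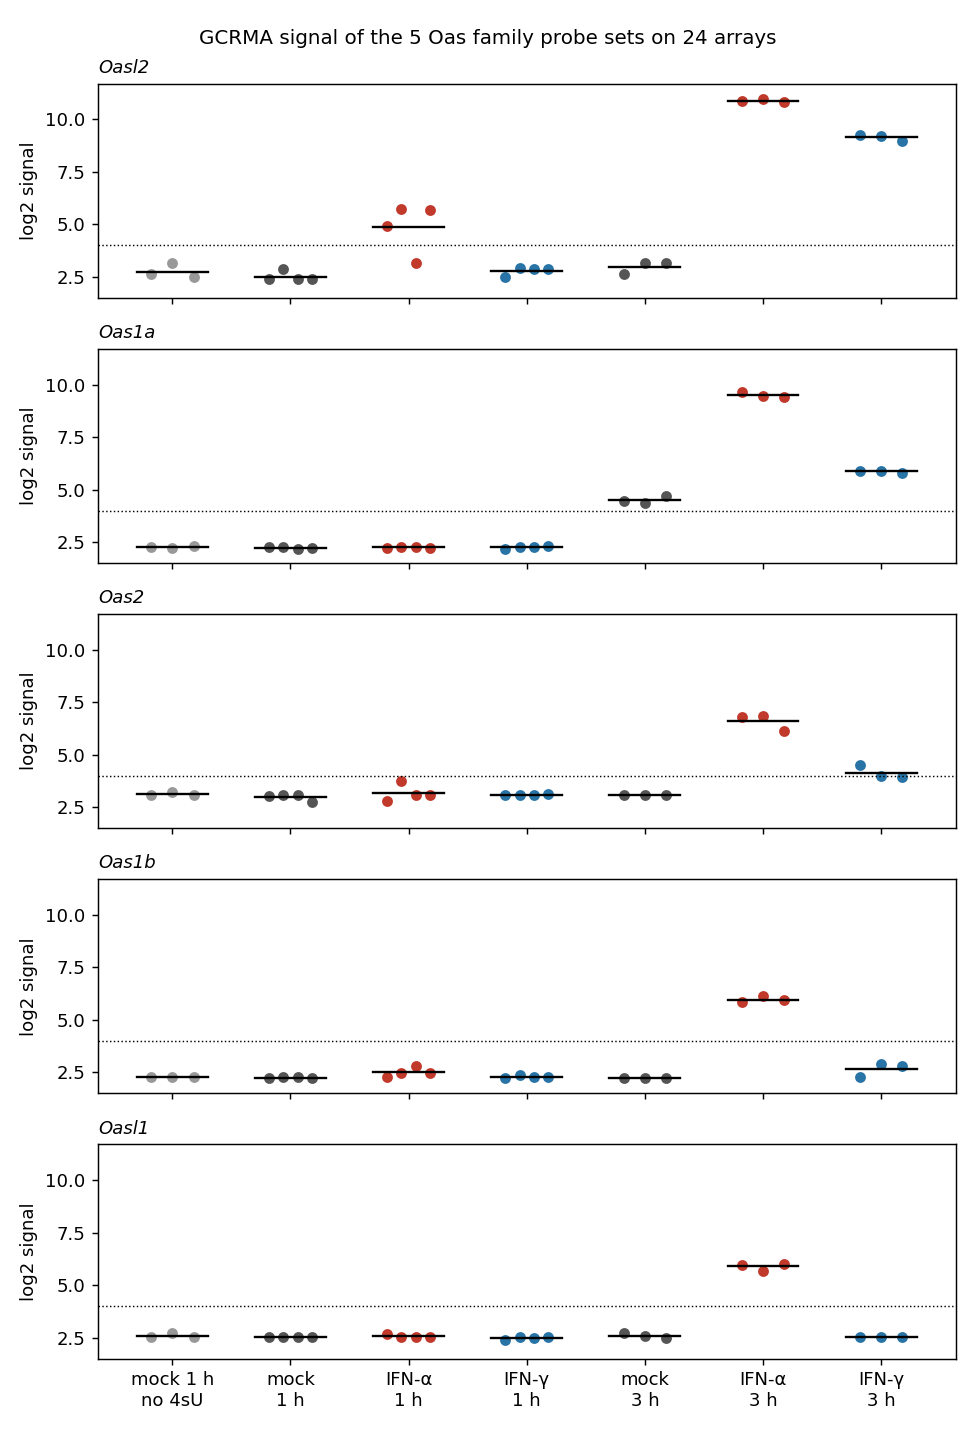
Log2 signal of each Oas probe set (1 panel per gene) on every array, by group, with points for arrays, a black line for the group mean and a dotted line at log2 4. The 3 arrays of IFN-alpha at 3 h are the highest in every panel, from 5.68 upward, and Oas1a is the only gene above the line in mock cells at 3 h.

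Oas1a, an OAS enzyme, was near the floor on all 15 arrays of the 1 h groups, at 2.16 to 2.29. In mock cells at 3 h its log2 signals were 4.46, 4.37 and 4.68. After IFN-gamma for 3 h they were 5.90, 5.90 and 5.78, and after IFN-alpha for 3 h 9.63, 9.47 and 9.41. The 3 groups at 3 h were thus separate, in the order mock, IFN-gamma, IFN-alpha, while the 4 groups at 1 h overlapped. Oas1a rose by 5.00 ± 0.11 (SE, n = 3 and 3) with IFN-alpha, which is 32.0-fold (limma adjusted p = 8.96e-18). With IFN-gamma it rose by 1.36 ± 0.11, or 2.57-fold (limma adjusted p = 3.04e-08). IFN-alpha exceeded IFN-gamma at 3 h by 3.64 ± 0.11, or 12.5-fold (limma adjusted p = 7e-15).

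Oas1a was also the 1 member of 5 above background in mock cells, on 3 of 3 arrays at 3 h. Against mock at 1 h with 4sU, where all 4 arrays were below log2 4, its mean at 3 h was at least 1.42-fold higher. The other 4 members were below log2 4 in mock cells at both times, and no difference can be read for them. Between these groups the time, the dose of 4sU and its labelling window all differed and cannot be told apart, so this difference was not tested.

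Oas1b, annotated as a pseudogene in the reference strain, was below log2 4 on 21 of 24 arrays. In mock cells at 3 h its log2 signals were 2.24, 2.23 and 2.22. After IFN-alpha for 3 h they were 5.83, 6.14 and 5.93, and after IFN-gamma for 3 h 2.28, 2.92 and 2.81. Oas1b therefore stood above background only in the IFN-alpha group at 3 h, where it rose by 3.74 ± 0.15, at least 3.91-fold (limma adjusted p = 2.54e-13). The difference after IFN-gamma was 0.44 ± 0.15 and did not pass (limma adjusted p = 0.318), with both groups below log2 4. Without replicate 1 of IFN-gamma, whose signal was the lowest of the 3, it was 0.63 and passed (limma adjusted p = 0.0267). IFN-alpha exceeded IFN-gamma at 3 h by 3.30 ± 0.15, at least 3.91-fold (limma adjusted p = 5.33e-12).

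Oas2, the larger OAS enzyme of the set, had log2 signals of 3.08, 3.07 and 3.07 in mock cells at 3 h. After IFN-alpha for 3 h they were 6.79, 6.82 and 6.15. After IFN-gamma for 3 h they were 4.50, 3.99 and 3.95. Again the 3 groups at 3 h did not overlap, but only 1 of 3 IFN-gamma arrays lay above background. Oas2 rose by 3.51 ± 0.21 with IFN-alpha, at least 6.0-fold (limma adjusted p = 1.28e-10). With IFN-gamma it rose by 1.07 ± 0.21, at least 1.11-fold (limma adjusted p = 0.00416). This second call was lost when values below log2 4 were set to 4, where the difference was 0.17 (limma adjusted p = 1). IFN-alpha exceeded IFN-gamma by 2.44 ± 0.21, or 5.41-fold (limma adjusted p = 9.97e-08).

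Oasl1, the OAS-like restraint on Irf7, was above background on the 3 arrays of IFN-alpha at 3 h alone, with log2 signals of 5.98, 5.68 and 6.02. In mock cells at 3 h they were 2.71, 2.57 and 2.50, and after IFN-gamma for 3 h 2.52, 2.51 and 2.51. The mock and IFN-gamma groups overlapped. Oasl1 rose by 3.30 ± 0.12 with IFN-alpha, at least 3.71-fold (limma adjusted p = 2.21e-14). The difference with IFN-gamma was -0.08 ± 0.12 (limma adjusted p = 1). IFN-alpha exceeded IFN-gamma by 3.38 ± 0.12, at least 3.71-fold (limma adjusted p = 4.21e-14).

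Oasl2, the OAS-like gene next to Oasl1, gave the largest differences among the members with both interferons. In mock cells at 3 h its log2 signals were 2.64, 3.15 and 3.15. After IFN-alpha for 3 h they were 10.89, 10.97 and 10.82, and after IFN-gamma for 3 h 9.26, 9.23 and 8.96. Both interferon groups lay far above every mock array and did not overlap with each other. Oasl2 rose by 7.92 ± 0.43 with IFN-alpha, at least 119-fold (limma adjusted p = 2.11e-11). With IFN-gamma it rose by 6.17 ± 0.43, at least 35.5-fold (limma adjusted p = 2.14e-09). IFN-alpha exceeded IFN-gamma by 1.75 ± 0.43, or 3.35-fold (limma adjusted p = 0.0372). That call was lost whichever of the 6 arrays was left out (limma adjusted p of 0.108 to 0.182, at differences of 1.65 to 1.80) and with no filter on low values (limma adjusted p = 0.0998). It held with only the groups compared in the fit. The SE comes from a spread shared by all 7 groups. The SD of Oasl2 was 0.0708 with IFN-alpha and 0.167 with IFN-gamma at 3 h, against 1.21 with IFN-alpha at 1 h.

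At 1 h Oasl2 was the only member to move. Its log2 signals were 4.94, 5.75, 3.16 and 5.70 after IFN-alpha. They were 2.40, 2.87, 2.40 and 2.38 in mock cells with 4sU, and 2.48, 2.93, 2.88 and 2.90 after IFN-gamma. All IFN-alpha arrays exceeded all mock and IFN-gamma arrays, but replicate 3 stayed below log2 4. The SD of the IFN-alpha group was 1.21, against 0.213 to 0.238 in the other 2 groups. Oasl2 rose by 2.37 ± 0.37 over mock (n = 4 and 4), at least 1.85-fold (limma adjusted p = 0.00204), and exceeded the IFN-gamma group by 2.09 ± 0.37, at least 1.85-fold (limma adjusted p = 0.00732). Both calls were lost with values below log2 4 set to 4 (limma adjusted p = 0.0885 and 0.0574) and with only the groups compared in the fit (0.756 and 0.977). That against IFN-gamma was also lost without the 5 arrays of low 5' actin signal, where it was 1.84 (limma adjusted p = 0.0844).

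The other 4 members stayed below log2 4 on all arrays at 1 h, where no order of levels can be read. Their log2 differences from mock were 0.01 to 0.24 with IFN-alpha and -0.04 to 0.11 with IFN-gamma. The highest single signal among them was 3.76, for Oas2 on IFN-alpha replicate 2, an array of low 5' actin signal. The part of RNA quality in it was not tested.

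**Figure D2:**
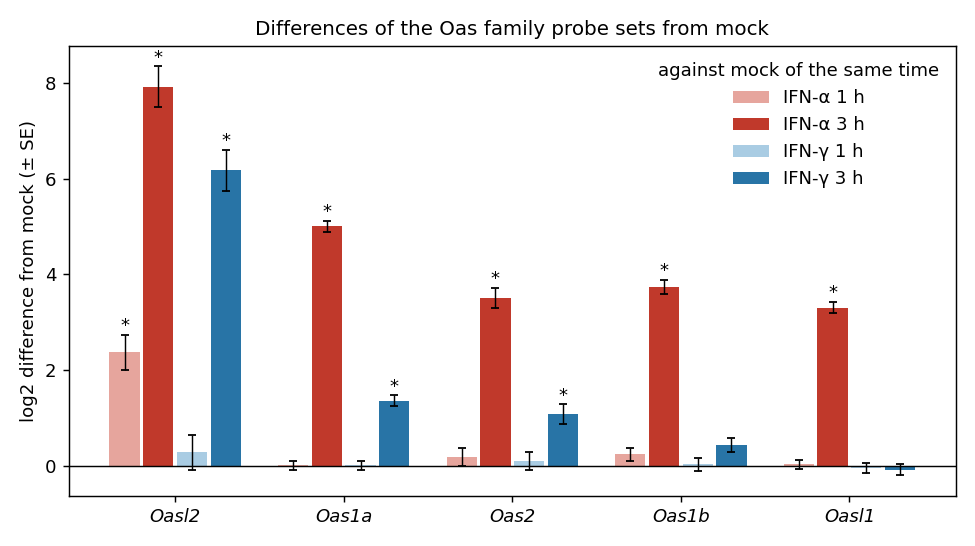
Log2 difference (± SE) of each Oas probe set for IFN-alpha and IFN-gamma against mock at 1 h and 3 h, with asterisks for calls. At 3 h all 5 IFN-alpha bars end between 3.30 and 7.92, whereas the IFN-gamma bars run from -0.08 for Oasl1 to 6.17 for Oasl2.

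Read against all probe sets, 5 of 5 members were called higher with IFN-alpha at 3 h, where 1.53% of all probe sets were (median difference of the members 3.74, of all probe sets -0.07). With IFN-gamma at 3 h 3 of 5 were called higher, where 1.88% were (1.07 and -0.05). At 1 h, 1 of 5 was called higher with IFN-alpha, where 0.259% were (0.19 and -0.01). With IFN-gamma at 1 h limma called 0 of 5 higher, where 0.435% were, and 0 of 5 had an unadjusted p under 0.05. No member was called lower in any of these 4 comparisons. Without any filter on low values the counts were the same in all 4. The 5 members were chosen with earlier results of these data known, so these counts and those that follow do not describe the whole OAS family. Oas1b and Oasl1 entered the test only through the arrays of IFN-alpha at 3 h.

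In the direct comparison of the interferons, IFN-alpha was called higher than IFN-gamma for 5 of 5 members at 3 h, where 0.761% of probe sets were, and for 1 of 5 at 1 h, where 0.104% were. Both comparisons share their interferon arrays with those against mock. Whether a response changed with time was tested as the difference from mock at 3 h minus that at 1 h. For IFN-alpha it was called higher for 5 of 5 members, where 0.932% were, and ranged from 3.27 ± 0.15 for Oasl1 (limma adjusted p = 5.97e-12) to 5.54 ± 0.56 for Oasl2 (limma adjusted p = 1.59e-06). Oas1a had a change of 4.99 ± 0.15, Oas1b of 3.49 ± 0.20 and Oas2 of 3.32 ± 0.28.

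For IFN-gamma the response was larger at 3 h for 2 of 5 members, where 0.787% of probe sets were called higher. These were Oas1a, by 1.34 ± 0.15 (limma adjusted p = 6.44e-06), and Oasl2, by 5.88 ± 0.56 (limma adjusted p = 1.14e-06). The change for Oas2 was 0.97 ± 0.28 and did not pass (limma adjusted p = 0.183), but passed with the replicate number as a block (limma adjusted p = 0.0419). For Oas1b and Oasl1 it was 0.41 and -0.04. The 4sU dose and labelling window differed between the times in mock and treated cells alike.

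Exposure of mock cells to 4sU for 1 h left the family at background. Limma called 0 of 5 members in either direction, where 0.0311% of probe sets were called, and 0 of 5 had an unadjusted p under 0.05. The log2 signals of Oasl2 without 4sU were 2.64, 3.16 and 2.47, which overlapped those with 4sU. Those of Oas2 were 3.08, 3.24 and 3.09, barely above the mock arrays with 4sU, and below log2 4 in both groups. With mock cells without 4sU as the control in place of those with it, Oasl2 remained the 1 member called with IFN-alpha at 1 h, and limma called 0 members with IFN-gamma.

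The remaining OAS genes of the mouse stayed at background. Of 7 such genes, 5 had a probe set of their own, and none of these was above log2 4 on any array. Their highest array signals were 3.08 for Oas1c, 2.69 for Oas1e, 2.25 for Oas1f, 2.73 for Oas1h and 2.37 for Oas3, so none entered the test and no direction can be given. Downstream of the synthetases, Abce1, which binds and inhibits RNase L, and Pde12, a phosphodiesterase that degrades 2'-5' oligoadenylates, were well measured. Abce1 had mean log2 signals of 10.30 with IFN-alpha and 10.38 in mock at 3 h, and Pde12 7.82 and 7.90. Limma called 0 of these 2 genes in all 9 comparisons, with 1 of 2 at an unadjusted p under 0.05 for 4sU and 0 of 2 in the other 8.

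A list of double-stranded RNA sensors and binders, which also holds the adaptor Mavs and the ubiquitin ligase Trim25, comprised 9 genes, all tested. With IFN-alpha at 3 h 8 of 9 were called higher (median difference of the list 3.95), and with IFN-gamma at 3 h also 8 of 9 (median 1.62). Mavs, the adaptor of the RIG-I-like receptors, did not pass in either, at -0.20 and -0.01. Tlr3, the endosomal receptor, rose at least 17.4-fold with IFN-alpha, Ddx58 (RIG-I) 23.9-fold, Dhx58 (LGP2) at least 9.88-fold and Ifih1 (MDA5) at least 8.19-fold (limma adjusted p of 3.28e-14 to 2.44e-07). With IFN-gamma, Zbp1 rose at least 4.18-fold, Ddx58 5.93-fold and Tlr3 at least 2.06-fold, the call for Tlr3 being lost whichever of the 6 arrays was left out. The IFN-gamma calls of Ifih1 and Dhx58, whose means of 3.82 and 3.97 were below log2 4, were lost with values below log2 4 set to 4 (limma adjusted p = 1 for both). That of Adar, an RNA-editing enzyme, was lost in 3 of 6 fits with an array left out, without mock replicate 3 or IFN-gamma replicate 1 or 2 (limma adjusted p of 0.0616 to 0.0989). IFN-alpha was called higher than IFN-gamma at 3 h for 7 of 9. Of these, Trim25 was lost whichever array was left out (limma adjusted p of 0.0693 to 0.163) and with no filter on low values (0.0586). Adar was lost in 5 of 6 such fits, all but that without IFN-gamma replicate 2 (limma adjusted p of up to 0.188).

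At 1 h the sensors that rose with IFN-alpha were Trim25, a ubiquitin ligase of the RIG-I pathway, at 3.25-fold, Ddx58 at 3.07-fold and Eif2ak2 (PKR) at 2.09-fold, that is 3 of 9. All 3 calls were lost with only the groups compared in the fit (limma adjusted p of 0.258 to 0.866). With IFN-gamma at 1 h limma called 0 of 9, and 2 of 9 had an unadjusted p under 0.05.

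Interferon signalling genes, which act upstream of the family, were 15 tested of 16 listed. With IFN-alpha 3 of 15 were called higher at 1 h and 6 of 15 at 3 h (medians 0.19 and 0.52), and with IFN-gamma 2 of 15 and 5 of 15 (0.01 and 0.44). Of the 6 with IFN-alpha at 3 h, Irf1 and Irf2 were lost whichever of the 6 arrays was left out (limma adjusted p of 0.0544 to 0.122). At 1 h Irf9, the DNA-binding part of the ISGF3 complex, rose 7.86-fold with IFN-alpha and 5.62-fold with IFN-gamma. Irf1, a transcription factor, rose 10.2-fold with IFN-alpha and 38.8-fold with IFN-gamma, and Usp18, which restrains the type I receptor, at least 3.93-fold with IFN-alpha. At 3 h Stat2, another part of ISGF3, rose 21.1-fold with IFN-alpha and 14.7-fold with IFN-gamma. Usp18 rose at least 194-fold and at least 7.76-fold.

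Irf7, whose translation Oasl1 restrains, rose at least 6.62-fold with IFN-alpha at 3 h (limma adjusted p = 1.09e-12). With IFN-gamma its difference was 0.49 ± 0.19 and did not pass (limma adjusted p = 0.545), with both groups below log2 4. Irf7 and Oasl1 thus were both above background in the IFN-alpha group at 3 h and in no other group mean. The same held for Oas1b among the members and for Ifih1 and Dhx58 among the sensors, so it does not set this pair apart.

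**Figure D3:**
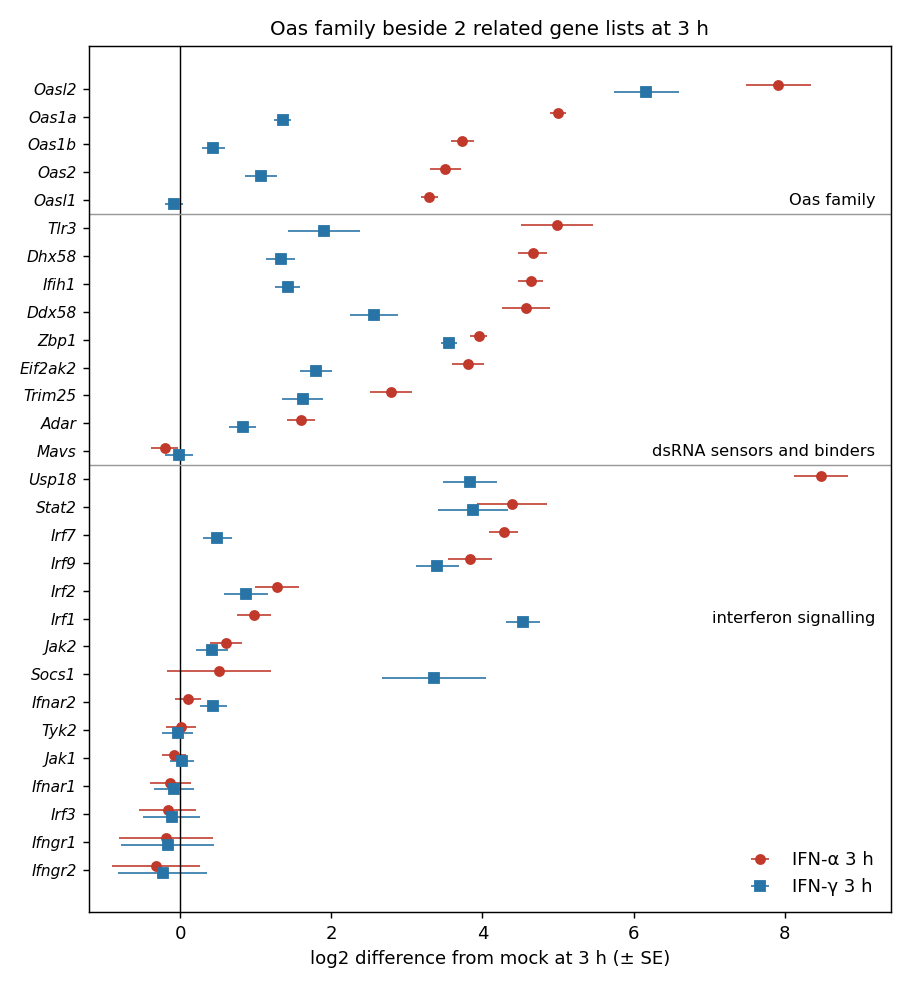
Log2 difference from mock at 3 h (± SE) for the Oas family, 9 double-stranded RNA sensors and binders and 15 interferon signalling genes, with circles for IFN-alpha and squares for IFN-gamma. Oasl2 lies at 7.92 and 6.17, close to Usp18 for IFN-alpha. For IFN-gamma Oasl1 lies at -0.08, Oas1b at 0.44 and Irf7 at 0.49.

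The genes on either side of the clusters were read as well. Of the nearest tested genes before and after the Oasl2-Oasl1 and the Oas2-Oas1b-Oas1a clusters, 12 in all and among them Git2, Sppl3, Acads, Ddx54, Rita1, Tpcn1, Ptpn11 and Rpl6, limma called 0 in any of the 9 comparisons. Of all probe sets 1.88% or fewer were called higher in each comparison, so 0 of 12 says little about these genes. Their log2 differences ranged from -0.43 to 0.06 with IFN-alpha and from -0.25 to 0.13 with IFN-gamma at 3 h, with 0 of 12 at an unadjusted p under 0.05 in both. At 1 h it was 1 of 12 with each interferon, Tchp, which lay below log2 4 on average in those groups. For 4sU it was also 1 of 12.

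The pattern over the 24 arrays was compared with that of 9420 other genes, with values below log2 4 set to 4, as a description without a test. The arrays share their treatment groups, and most points of a dim gene lie at log2 4, so that 3 to 9 arrays set each correlation. Oas1a was most like Sp100, a nuclear body protein, with a Pearson correlation of 0.99. Oas1b was most like Irf7 (0.9996), Oas2 like Tent5a (0.989), Oasl1 like Trim30d (1.00) and Oasl2 like Parp14 (0.9942). Parp14 rose at least 1.52-fold with IFN-alpha at 1 h, at least 40.3-fold with IFN-alpha at 3 h and at least 22.1-fold with IFN-gamma at 3 h. Its call at 1 h was lost with values below log2 4 set to 4 (limma adjusted p = 0.409) and with only the groups compared in the fit (0.73). With the values as deposited, an alternative chosen after seeing the data, 4 of the 15 nearest genes (3 per member) were again among the nearest 3, namely Sp100 for Oas1a, Irf7 for Oas1b, Tent5a for Oasl1 and Parp14 for Oasl2.

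Among the members themselves the correlation ran from 0.757 between Oasl1 and Oasl2 to 0.989 between Oas1b and Oasl1. The neighbours Oasl1 and Oasl2 were thus the least alike pair, and Oas1b and Oasl1, of different clusters, the most alike. Values below log2 4 were set to 4 here too. The correlation of Oas1b with Oasl1 therefore rests on the arrays of IFN-alpha at 3 h alone. Oas1b and Oasl1 were the 2 members with all arrays outside the IFN-alpha group at 3 h below log2 4, whereas Oasl2 was above it in 9 arrays of 3 groups.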

How the data were processed

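The values are log2 signals of 24 single-colour Affymetrix arrays that the authors summarised with GCRMA and deposited, per the submitters' processing notes. The GCRMA version, and whether all arrays were processed in a single run, are not given in the sources used here. The values were used without further normalization. Control probe sets (64 of 45101) were left out. Of the other 45037, the platform annotation gave 34945 a single symbol, 932 several and 9160 none. Probe sets above log2 4 on at least 3 arrays were kept (19305). A mean for each of the 7 groups was fitted by lmFit and eBayes of limma 3.58.1 in R 4.3.3 (with version 1.17.8 of the data.table package), leaving 17 degrees of freedom. All 7 groups shared a single estimate of the spread per probe set, although the SDs were larger at 1 h than at 3 h. Two-sided tests were used with a Benjamini-Hochberg adjusted p under 0.05 over all kept probe sets.

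A bound on a fold sets each array of the lower group to at least log2 4. Other genes were named from 4 lists (other OAS genes, RNase L arm, double-stranded RNA sensors and binders, interferon signalling), up to 4 of each list per comparison by size of difference with called genes first, by correlation with a member and by position. Mavs, and Adar and Trim25 where their calls were lost, were named after their values were seen. The members, lists and alternatives were chosen with earlier results of these data known. The fit was tested on simulated data with the same spread in every group and independent arrays. That setting lacks the unequal spreads of 1 h and 3 h and the correlation of same-numbered arrays. The number of arrays limits the precision. Between the 4sU groups of a time, same-numbered arrays correlated in their deviations from the group means (0.465 to 0.914 at 1 h, 0.128 to 0.646 at 3 h). Differently numbered arrays ran from -0.74 to 0.42 at 1 h and from -0.557 to 0.382 at 3 h. Replicate numbers thus pair these arrays at 1 h, and less clearly at 3 h, where the ranges overlap. With mock without 4sU, same-numbered arrays ran from -0.215 to 0.802.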

Additional observations from a re-analysis of the deposited data

Results flagged for a closer look

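Of 15 groups of 4 arrays (5 members in 3 groups at 1 h), 3 held an array far from the others by Dixon's criterion, which chance meets in about 1 group in 20. Oas2 had 2.753 on mock replicate 4 at 1 h, where the nearest array had 3.053. Oasl2 had 2.87 on mock replicate 2 at 1 h, where the nearest had 2.404, and that array also had a low 5' actin signal. Oasl2 had 2.481 on IFN-gamma replicate 1 at 1 h, where the nearest had 2.885. All 3 signals and their groups lie below log2 4.

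The response differed between 1 h and 3 h by its own test in limma for all 5 members with IFN-alpha, by 4.99 for Oas1a, 3.493 for Oas1b, 3.321 for Oas2, 3.268 for Oasl1 and 5.543 for Oasl2 on the log2 scale. With IFN-gamma it differed by 1.344 for Oas1a and 5.885 for Oasl2. The effects of time, of the dose of 4sU and of its labelling window cannot be told apart here.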

How the results depend on the processing

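The count of members called with IFN-alpha at 1 h was 0 with values below log2 4 set to 4 and 0 with only the groups compared, in place of 1. Between the interferons at 1 h it was likewise 0 under both, and 0 without the arrays of low 5' actin signal. Each of these calls rests on Oasl2, with mock and IFN-gamma arrays below log2 4 at 1 h and an SD of 1.21 in the IFN-alpha group. With only the groups compared, the differences were 2.37 and 2.09, as in the main fit. There the estimate of the spread changed and the difference did not. With values below log2 4 set to 4, both differences were 1.10. The cause of the losses was otherwise not tested. With the replicate number as a block, the counts against mock were as without it. They were 1 and 0 at 1 h and 5 and 3 at 3 h for IFN-alpha and IFN-gamma. The block changed 1 call of a member, Oas2 in the change of the IFN-gamma response (limma adjusted p = 0.0419). Leaving out each array in turn gave counts of 5 for IFN-alpha at 3 h throughout, 3 to 4 for IFN-gamma at 3 h, and 4 for IFN-alpha over IFN-gamma at 3 h throughout, where Oasl2 was lost each time. Among 169 settings of 24 differences of members, 7 calls were lost and 1 gained, and among 212 with an array left out, 6 were lost and 1 gained. No direction reversed, but settings that change only the filter or the groups in the fit leave a difference as it was. Such settings could not reverse it. The 24 differences were those called in the main fit or under an alternative. For 93 differences of other named genes 69 of 1460 settings lost the call, among them Irf1 and Irf2 with IFN-alpha at 3 h, lost whichever array was left out. Signals below log2 4 carry no order, which limits 4 of the 5 members at 1 h.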
